A study of Mus musculus with 2 samples.

Results

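The genes described here were the stem cell and Wnt target genes of the crypt of the small intestine: Lgr5, Olfm4, Ascl2, Smoc2, Gkn3, Axin2, Rgmb, Slc12a2 and Igfbp4. They were taken by symbol from the gene rows of both libraries, and all 9 were present among the 55357 genes listed. The study compared the epithelium of the small intestine from adip fl/fl mice (WT), whose adiponectin gene carries floxed alleles, with that of adip fl/fl-Villi-Cre mice (AdipKO), which carry the same floxed alleles and a Cre recombinase under the villin promoter, active in intestinal epithelial cells. Each genotype was measured once, as a pooled sample of 8-week-old male littermates enriched for crypts, by droplet single-cell RNA sequencing that reads the 3′ end of transcripts. With 1 library per genotype, no test between genotypes was possible, and every interval below is an exact 95% interval (Poisson for levels, Clopper-Pearson for shares) that covers counting error only.

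In the small intestine, stem cells sit at the base of the crypt between Paneth cells and divide to feed the transit-amplifying (TA) cells above them, which mature into enterocytes, goblet, tuft and enteroendocrine cells on the way to the villus. Wnt ligands hold the stem cell state: they bind Frizzled and LRP receptors, stabilise beta-catenin and so switch on target genes through TCF and LEF factors, while R-spondins strengthen the signal through the LGR receptors. Tuft cells are rare chemosensory epithelial cells known for starting the response to parasites.

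The members have different roles in this system. Lgr5 is the R-spondin receptor by which crypt base columnar stem cells are usually recognised. Olfm4 encodes a secreted glycoprotein of the stem cell zone, and Gkn3 a secreted gastrokine. Ascl2 is a basic helix-loop-helix transcription factor that keeps the stem cell programme on. Axin2 is a scaffold of the beta-catenin destruction complex and a negative feedback target of Wnt. Smoc2 and Igfbp4 encode secreted proteins, a matricellular calcium-binding protein and a binding protein of insulin-like growth factors. Rgmb is a co-receptor for bone morphogenetic proteins, and Slc12a2 is the sodium-potassium-chloride cotransporter of secretory crypt cells.

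On the GRCm38 genome (GENCODE annotation), Lgr5 (ENSMUSG00000020140) lies at chr10:115450311-115587780 on the minus strand, Olfm4 (ENSMUSG00000022026) at chr14:79984081-80023139 on the plus strand, and Ascl2 (ENSMUSG00000009248) at chr7:142966829-142969264 on the minus strand. Smoc2 (ENSMUSG00000023886) spans chr17:14279506-14404790 on the plus strand, Gkn3 (ENSMUSG00000030048) chr6:87383256-87388935 on the minus strand, and Axin2 (ENSMUSG00000000142) chr11:108920349-108950783 on the plus strand. Rgmb (ENSMUSG00000048027) spans chr17:15803188-15831039 on the minus strand and Igfbp4 (ENSMUSG00000017493) chr11:99041244-99054392 on the plus strand. Genes overlapping Lgr5, Olfm4, Smoc2 and Axin2 on either strand had at most 2 UMIs each.

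Promoter sequences were read from RefSeq on GRCm38.p6 for 6 of the 9 members, Olfm4, Ascl2, Gkn3, Axin2, Rgmb and Igfbp4. The 4 printed here show how unlike the starts of these co-detected crypt genes are in CG dinucleotides. Each is the 250 bases before the annotated start, 5′ to 3′ on the gene's strand, with CG pairs in capitals: chr14:80000052-80000301 (plus strand) for Olfm4, chr6:87388936-87389185 (minus strand) for Gkn3, chr7:142969265-142969514 (minus strand) for Ascl2 and chr11:108920099-108920348 (plus strand) for Axin2. The RefSeq start of Olfm4 lies 16221 bases inside the GENCODE span given above, whereas those of Gkn3, Ascl2 and Axin2 are at its 5′ end.
Olfm4: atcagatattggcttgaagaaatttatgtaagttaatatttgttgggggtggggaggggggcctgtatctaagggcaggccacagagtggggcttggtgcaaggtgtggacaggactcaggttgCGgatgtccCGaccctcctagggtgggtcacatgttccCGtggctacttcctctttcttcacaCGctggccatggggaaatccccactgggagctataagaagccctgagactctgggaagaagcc
Gkn3: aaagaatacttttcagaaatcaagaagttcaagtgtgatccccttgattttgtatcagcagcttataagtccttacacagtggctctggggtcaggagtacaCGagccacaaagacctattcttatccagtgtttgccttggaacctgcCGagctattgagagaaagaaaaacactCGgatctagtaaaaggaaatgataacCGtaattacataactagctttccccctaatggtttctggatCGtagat
Ascl2: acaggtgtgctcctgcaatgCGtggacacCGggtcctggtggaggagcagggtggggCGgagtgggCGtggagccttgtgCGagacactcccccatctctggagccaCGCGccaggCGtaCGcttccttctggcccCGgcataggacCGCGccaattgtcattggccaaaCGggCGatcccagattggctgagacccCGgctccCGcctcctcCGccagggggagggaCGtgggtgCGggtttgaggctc
Axin2: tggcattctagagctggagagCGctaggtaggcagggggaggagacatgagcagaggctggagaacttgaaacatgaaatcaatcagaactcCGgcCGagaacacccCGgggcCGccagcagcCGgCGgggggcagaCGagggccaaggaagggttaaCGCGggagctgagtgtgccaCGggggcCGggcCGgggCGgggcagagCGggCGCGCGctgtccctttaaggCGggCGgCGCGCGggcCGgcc

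Olfm4 had 4 CG pairs and Gkn3 had 5, below the median of 6 over all 32817 promoters, and 44.4% and 49.7% of those promoters had as few or fewer. Ascl2 had 19 CG pairs and Axin2 had 24, and 19.7% and 11.98% of all promoters had as many or more. Igfbp4 had 22. The 3 annotated starts of Rgmb had 9, 27 and 18. The TCF and LEF word CTTTGAA, its variant CTTTGAT, its variant CTTTGTA and its variant CTTTGTT, searched on both strands of these 250 bases, were in 0 of the 6 members' promoters and in 14.8% of all promoters.

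The libraries held 9791 barcodes and 42150623 unique molecular identifiers (UMIs, 1 per captured transcript) for WT, and 11838 barcodes and 63370798 UMIs for AdipKO. Barcodes with more than 500 genes and under 25% of UMIs from mitochondrial (mt-) genes were kept, which left 3069 WT cells (31.3%) and 5555 AdipKO cells (46.9%) at medians of 4838 and 4749 UMIs. The libraries shared 31 barcodes, 3 of them among the kept cells. Adipoq, the targeted gene, had 1 UMI over all WT barcodes and 0 over all AdipKO barcodes, too few to check the labels. Levels are given as UMIs per 1000000 UMIs of a cell class (CPM).

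Cells were clustered without the members among the variable genes, and clusters were named from marker lists that hold none of the members. The stem-like class had 41 WT and 121 AdipKO cells, 1.34% and 2.18% of kept cells, at medians of 18646 and 18154 UMIs. It passed 10 of the 11 stem markers measured and all 12 cycling markers, and also 5 of 10 Paneth and 5 of 5 fibroblast markers. The tuft-like class passed 10 of 10 tuft markers and had 76 WT and 62 AdipKO cells at medians of 5340 and 8715 UMIs. The TA-like class had 44 and 108 cells. The other classes were goblet-like, a pair of enteroendocrine-like classes (led by Ghrl and by Reg4), villus bottom-like, mid-villus-like and villus tip-like enterocytes, T cell-like (some cycling), myeloid-like and B or plasma-like. An enterocyte cluster and a crypt cluster stayed unnamed. Paneth markers passed in other classes too, 6 in the goblet-like and 4 in the unnamed crypt cluster, but no cluster was named Paneth-like. Outside the crypt clusters, Paneth was never the type with the largest share of passing markers. The rule for crypt clusters allowed only the names stem-like and TA-like.

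Of the 9 members, 7 had their highest level in stem-like cells in both libraries, Gkn3 in WT from only 3 UMIs. Among members with at least 20 UMIs it was 6 of 8 in WT and 7 of 9 in AdipKO, against 9.49% and 8.42% of all genes with that count. The exceptions were Lgr5, highest in tuft-like cells, and Igfbp4, highest in the enteroendocrine-like cells led by Reg4 (shown in the map of levels by class). A stem-like cell had UMIs of a median of 4 members in WT and 5 in AdipKO, and no stem-like cell had none. At least 5 members were present in 19 of 41 WT and 68 of 121 AdipKO stem-like cells. TA-like cells, which were about as deeply sequenced, had a median of 2 members in both libraries. T cell-like cells, a class outside the epithelium, served as the reference for background, and whether they transcribe some members themselves was not tested. Of these cells, 329 of 362 in WT and 401 of 434 in AdipKO had no member UMI, at medians of 4600 and 3989.5 UMIs.

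**Figure D1:**
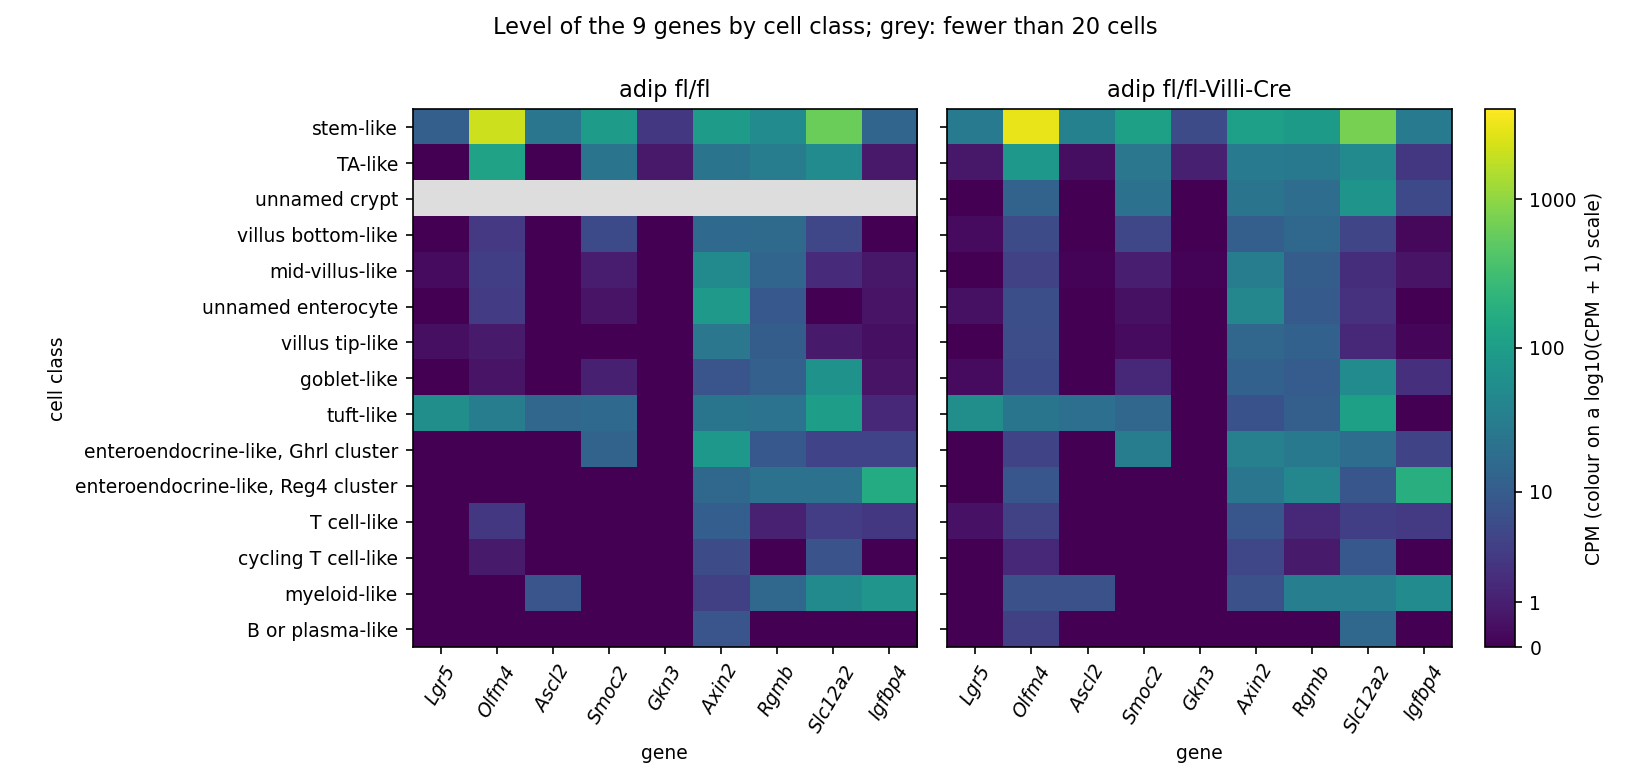
Level of each of the 9 genes (columns) in each cell class (rows), in CPM on a log colour scale, in the adip fl/fl (WT) and adip fl/fl-Villi-Cre (AdipKO) libraries, with classes of fewer than 20 cells in grey. Lgr5 is highest in the tuft-like row and Igfbp4 in the enteroendocrine-like row led by Reg4, and the other 7 genes are highest in the stem-like row, Gkn3 in WT from 3 UMIs.

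Lgr5 transcripts were few. The WT library had 52 Lgr5 UMIs over all kept cells and the AdipKO library 137. In stem-like cells Lgr5 stood at 11.2 CPM (5.77 to 19.5, 12 UMIs) in WT and at 30.5 CPM (24.5 to 37.6, 88 UMIs) in AdipKO. It was found in 6 of 41 WT stem-like cells (14.6%) and 32 of 121 AdipKO stem-like cells (26.4%). The background is low for this gene, with 0 of 362 and 1 of 434 T cell-like cells holding a UMI. In TA-like cells Lgr5 was found in 0 of 44 WT cells, which allows a share of cells with a UMI of up to 6.82% (a limit of 3 counts), and in 2 of 108 AdipKO cells. Stem-like over TA-like, the ratio in AdipKO was 42.6 (11.4 to 357).

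In tuft-like cells Lgr5 was higher than in stem-like cells in both libraries. Its level there was 59.8 CPM (42.1 to 82.5, 37 UMIs) in WT and 58.6 CPM (42.0 to 79.5, 41 UMIs) in AdipKO, and the AdipKO over WT ratio was 0.979 (0.612 to 1.57). Tuft-like over stem-like gave a ratio of 5.36 (2.73 to 11.3) in WT and 1.92 (1.29 to 2.81) in AdipKO. A tuft-like cell held at most 4 of the 37 Lgr5 UMIs in WT and at most 8 of the 41 in AdipKO. The AdipKO cell with 8 also held 7 Olfm4 UMIs, and the other AdipKO tuft-like cells with both genes held 3 and 2 Lgr5 UMIs. The AdipKO ratio thus rests in part on a few cells that also had Olfm4. Lgr5 was found in 20 of 76 WT tuft-like cells (26.3%) and 19 of 62 AdipKO tuft-like cells (30.6%). With each cell thinned to 2000 UMIs by a single random draw, the shares were 14.3% in tuft-like and 4.88% in stem-like WT cells. In AdipKO cells they were 4.92% and 5.83%, an order opposite to that of the levels and of the shares without thinning. The spread between draws was not measured, so the order of the thinned shares is not read. Tuft-like cells carried 71.2% of all Lgr5 UMIs in WT and 29.9% in AdipKO, and stem-like cells 23.1% and 64.2%. With the 8% highest doublet scores removed before clustering, tuft-like cells numbered 55 in WT and 50 in AdipKO, in place of 76 and 62. Stem-like cells numbered 36 and 121, in place of 41 and 121. After this removal the tuft-like over stem-like ratio of Lgr5 was not reversed in either library. Beyond that, the part of doublets in the tuft-like Lgr5 level was not tested.

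**Figure D2:**
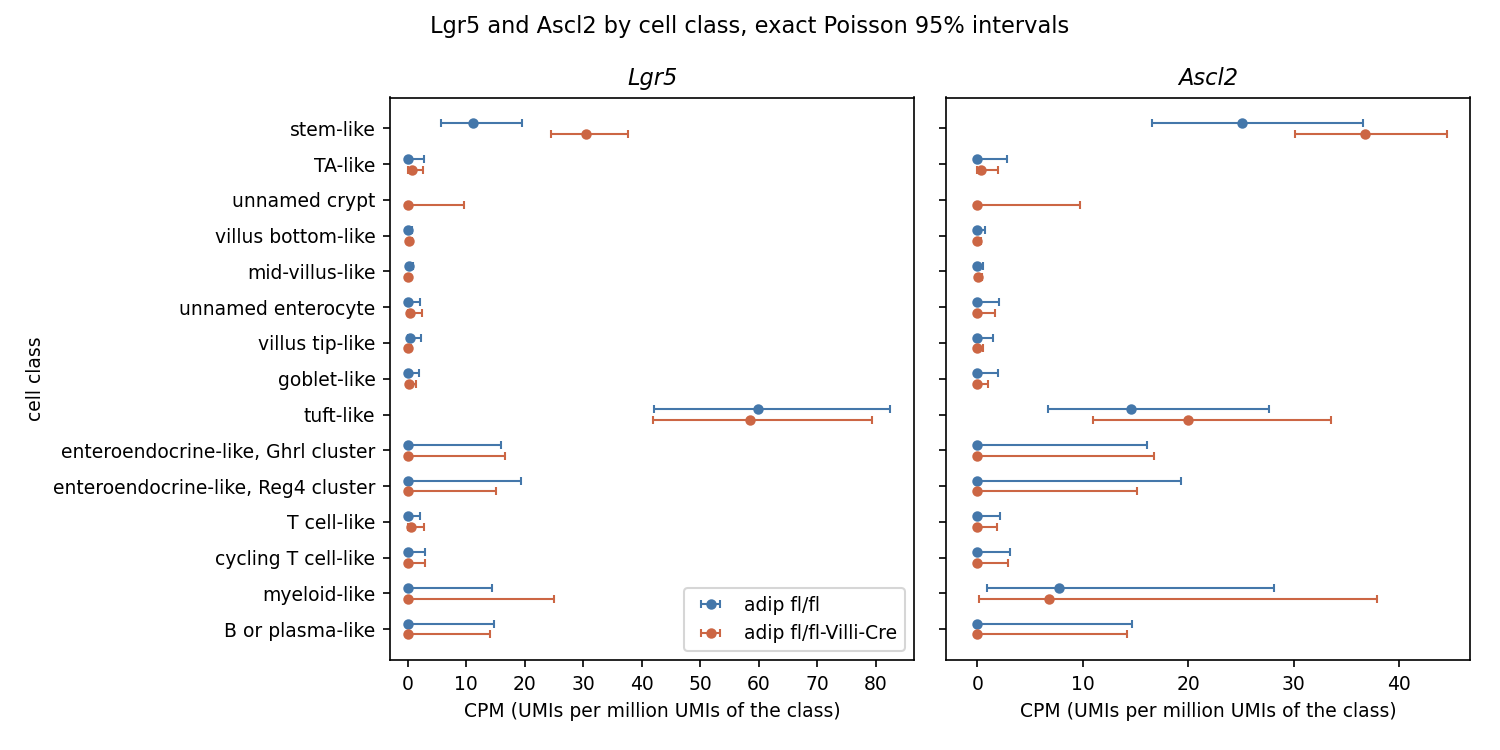
Levels of Lgr5 and Ascl2 in CPM (x axis) by cell class (y axis) in the WT and AdipKO libraries, points with exact Poisson 95% intervals. Lgr5 lies near 60 CPM in tuft-like cells of both libraries and at 11.2 and 30.5 CPM in stem-like cells, while Ascl2 is higher in stem-like than in tuft-like cells.

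The tuft-like cells with Lgr5 all carried tuft genes. Dclk1, a tuft cell kinase, Trpm5, the cation channel of taste and tuft cells, Sh2d6 and the actin-binding gene Avil each had UMIs in all 20 WT and all 19 AdipKO tuft-like cells with Lgr5. Olfm4 was found in 1 of those 20 and 3 of those 19 cells, and Mki67, a marker of dividing cells, in 0 and 1. Top2a, another marker of dividing cells, was found in 1 and 4 of them. In tuft-like cells without Lgr5, Top2a was found in 4 of 56 WT and 3 of 43 AdipKO cells. Lgr5-positive stem-like cells had the opposite make-up in Olfm4 and the tuft genes. Olfm4 was found in all 6 WT and all 32 AdipKO stem-like cells with Lgr5, Dclk1 in 0 and 2, and Trpm5 in 0 and 3.

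Lgr5 was also set against Olfm4 within each class. There were 0.519 Lgr5 UMIs per 100 Olfm4 UMIs (0.268 to 0.909) in WT stem-like cells and 185 (105 to 336) in WT tuft-like cells. In AdipKO the values were 0.994 (0.796 to 1.23) and 241 (134 to 453). In WT, 19 of the 20 Olfm4 UMIs of tuft-like cells came from 1 cell. The plot of Lgr5 against Olfm4 UMIs per cell gives the same counts cell by cell.

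**Figure D3:**
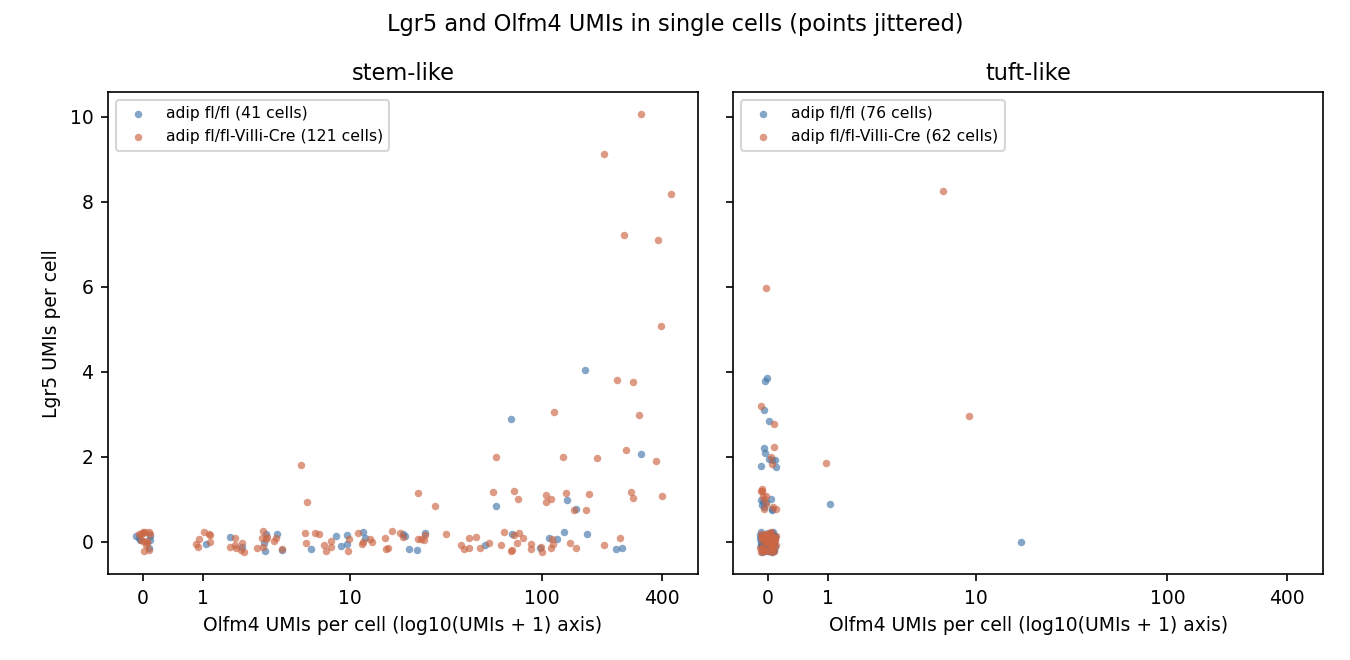
Lgr5 UMIs (y axis) against Olfm4 UMIs (x axis, log10(UMIs + 1)) in each stem-like and each tuft-like cell of both libraries, points jittered. Stem-like cells with Lgr5 all have Olfm4, whereas tuft-like cells with Lgr5 lie at 0 Olfm4 UMIs except for 1 WT and 3 AdipKO cells.

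Within the stem-like class, the cells with Lgr5 had higher levels of 7 other members in both libraries, and of Igfbp4 in AdipKO only. Their Olfm4 level was 7134 CPM in WT and 7179 CPM in AdipKO, against 1516 and 1339 CPM in stem-like cells without Lgr5. Slc12a2 stood at 1715 and 1253 CPM with Lgr5 and at 485 and 520.2 CPM without it. Axin2 stood at 239 and 175 CPM with Lgr5 and at 75.5 and 76.5 CPM without it. Ascl2 stood at 66.0 and 68.99 CPM with Lgr5 and at 19.9 and 23.2 CPM without it. Smoc2, Rgmb and Gkn3 went the same way, Gkn3 from 2 UMIs against 1 in WT. Igfbp4 stood at 50.3 CPM with Lgr5 and 19.2 CPM without it in AdipKO, but at 8.25 CPM (1 UMI) with and 14.7 CPM (14 UMIs) without it in WT. The cells with Lgr5 had median depths of 21420.5 and 18414 UMIs and those without it 18065 and 17549 UMIs, so they were also deeper, most clearly in WT.

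Ascl2, which acts together with Wnt signalling on the stem cell programme, was like Lgr5 in being shared by stem-like and tuft-like cells. In stem-like cells it stood at 25.1 CPM (16.6 to 36.5, 27 UMIs) in WT and 36.8 CPM (30.1 to 44.5, 106 UMIs) in AdipKO, and was found in 24.4% and 33.9% of cells. In tuft-like cells it stood at 14.6 CPM (6.66 to 27.6, 9 UMIs) and 20.0 CPM (10.9 to 33.6, 14 UMIs). The stem-like level was the higher of the pair in both libraries, but in WT the ratio of tuft-like to stem-like, 0.580 (0.240 to 1.27), did not leave the counting error. Elsewhere Ascl2 was close to absent, with 0 of 44 and 1 of 108 TA-like cells, 0 of 362 and 0 of 434 T cell-like cells, and 3 UMIs in myeloid-like cells of both libraries together. Lgr5 and Ascl2 levels over 26 profiles (13 classes in each library) had a Pearson r of 0.84 on log2(CPM + 1).

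Olfm4 was the member with the most UMIs, 2542 in WT and 9313 in AdipKO, and it was concentrated in stem-like cells, which held 90.9% and 95.1% of them. The level there was 2149.5 CPM (2063 to 2239) in WT and 3072 CPM (3009 to 3137) in AdipKO. Olfm4 was found in 35 of 41 (85.4%) and 107 of 121 (88.4%) stem-like cells, and after thinning in 68.3% and 65.8%. The spread between cells was wide: the median stem-like cell had 12 Olfm4 UMIs in WT and 22 in AdipKO, the richest had 306 and 418, and 6 and 14 cells had 0. Scaled to the depth of each cell, the median was 1676 CPM in WT and 1195 CPM in AdipKO. The upper quartile was 3986 and 5843 CPM, so the higher summed level in AdipKO was not that of the median cell.

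Outside the stem-like class Olfm4 dropped fast. TA-like cells stood at 117 CPM (99.2 to 137) in WT and 81.7 CPM (71.5 to 93.1) in AdipKO, and single cells made most of it, since 131 of 153 WT and 126 of 228 AdipKO UMIs came from the richest cell. In tuft-like cells 19 of the 20 WT UMIs came from 1 cell. T cell-like cells had Olfm4 in 1.38% of WT and 1.84% of AdipKO cells, a level of 2.87 and 4.11 CPM that marks the background. Goblet-like (0.528 and 5.44 CPM), villus tip-like (0.824 and 6.19 CPM) and mid-villus-like cells (3.71 and 3.95 CPM) lay near that background.

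Gkn3 was the sparsest member. It had 3 UMIs in 2 WT stem-like cells (2.79 CPM, 0.575 to 8.15) and 16 UMIs in 8 AdipKO stem-like cells (5.55 CPM, 3.17 to 9.02). TA-like cells added 1 and 3 UMIs, and 1 mid-villus-like AdipKO cell had 1. All other classes were at 0 in both libraries. The 1 UMI of AdipKO mid-villus-like cells came to 0.0706 CPM, below the interval of AdipKO stem-like cells. For WT and for the smaller classes, little can be said of Gkn3 outside the crypt at this depth.

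Smoc2 was graded along the crypt-villus axis. Stem-like cells stood at 95.8 CPM (78.2 to 116) in WT and 109.7 CPM (97.9 to 122) in AdipKO, TA-like cells at 22.9 and 25.4 CPM, villus bottom-like cells at 5.55 and 4.79 CPM and mid-villus-like cells at 0.963 and 0.988 CPM. The order was the same in both libraries. Smoc2 was found in 75.6% and 74.4% of stem-like cells and in 0 of 362 and 0 of 434 T cell-like cells. Tuft-like cells had 16.2 and 14.3 CPM, and the enteroendocrine-like cells led by Ghrl had 3 and 7 UMIs (13.1 and 31.8 CPM).

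Slc12a2, which loads chloride into secretory cells, was the most widely detected member in stem-like cells. It was found in 97.6% of WT and 95.04% of AdipKO stem-like cells, at 624 CPM (578 to 673) and 738 CPM (707 to 769.9). Those cells held 66.2% and 78.6% of all Slc12a2 UMIs. A second tier of classes followed, with tuft-like cells at 100.3 and 111 CPM, goblet-like cells at 68.1 and 54.1 CPM, TA-like cells at 54.3 and 51.6 CPM and myeloid-like cells at 50.6 and 34.0 CPM. The unnamed crypt cluster, 55 AdipKO cells and 1 WT cell, had 71.0 CPM (46.8 to 103) in AdipKO, with 10 of its 27 UMIs in 1 cell. Enterocyte classes lay at 4.81 CPM or below, against 3.44 and 3.60 CPM in T cell-like cells.

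Rgmb was broad. Stem-like cells stood at 53.0 CPM (40.2 to 68.7) in WT and 91.3 CPM (80.6 to 103) in AdipKO and TA-like cells at 31.3 and 27.2 CPM. Villus bottom-like cells had 16.6 and 15.7 CPM, and mid-villus-like, villus tip-like and goblet-like cells lay between 10.3 and 14.0 CPM. These are above the 1.15 and 1.54 CPM of T cell-like cells, so Rgmb was measured along the whole axis. In AdipKO the enteroendocrine-like cells led by Reg4 came next after the stem-like cells, at 45.2 CPM (22.6 to 80.9), with 20.9 CPM (5.71 to 53.6) in WT.

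Igfbp4 departed from the other members. The enteroendocrine-like cells led by Reg4 stood at 162 CPM (110.3 to 230.4) in WT and 185 CPM (135 to 248) in AdipKO, and 15 of 25 and 16 of 28 of them held a UMI. Myeloid-like cells followed at 73.9 and 54.4 CPM. Stem-like cells had 14.0 CPM (7.81 to 23.0, 17.1% of cells) in WT and 28.5 CPM (22.6 to 35.3, 33.1% of cells) in AdipKO. Tuft-like cells had 1 UMI in WT and 0 in AdipKO. Over the 26 profiles Igfbp4 and Lgr5 had a Pearson r of 0.02.

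Axin2 was split between the crypt and the villus. Stem-like cells were the highest class, at 93.9 CPM (76.5 to 114) in WT and 106 CPM (94.3 to 118) in AdipKO, with a UMI in 63.4% and 65.3% of cells. TA-like cells (23.7 and 29.8 CPM) and villus bottom-like cells (16.3 and 11.4 CPM) were lower. The level was higher again in mid-villus-like cells, at 50.5 CPM (45.5 to 55.9) in WT and 31.8 CPM (29.0 to 34.9) in AdipKO, and in the unnamed enterocyte cluster, at 87.7 CPM (74.5 to 102) and 44.9 CPM (36.5 to 54.8). Villus tip-like cells had 25.9 and 14.5 CPM. In WT the intervals of the stem-like class, the unnamed enterocyte cluster and the enteroendocrine-like cells led by Ghrl (82.7 CPM, 49.8 to 129) overlapped, so their order there is not resolved. Mid-villus-like cells held 41.2% and 35.9% of all Axin2 UMIs, more than the 11.3% and 24.2% in stem-like cells. T cell-like cells had 10.9 and 8.22 CPM, and goblet-like cells (7.92 and 11.96 CPM) lay near that level. Whether T cell-like cells transcribe Axin2 themselves was not tested, so their level may not be background alone.

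The mitochondrial share of UMIs differed between the enterocyte classes, though not always with the Axin2 level. Its median was 17.1% in WT and 14.5% in AdipKO mid-villus-like cells, 22.0% and 21.9% in the unnamed enterocyte cluster, 20.3% and 20.4% in villus tip-like cells, where Axin2 was lower, 6.66% and 5.86% in villus bottom-like cells and 4.01% and 4.62% in stem-like cells. In the 4 enterocyte classes together, WT cells with 0 to 5% mitochondrial UMIs had 26.03 CPM of Axin2 and those with 20 to 25% had 60.1 CPM. The corresponding AdipKO values were 19.0 and 26.4 CPM. Barcodes removed by the filter also carried Axin2, with 59.8 and 29.97 CPM at a mitochondrial share of 25 to 50%. The part of the mitochondrial share in the Axin2 levels was not tested.

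**Figure D4:**
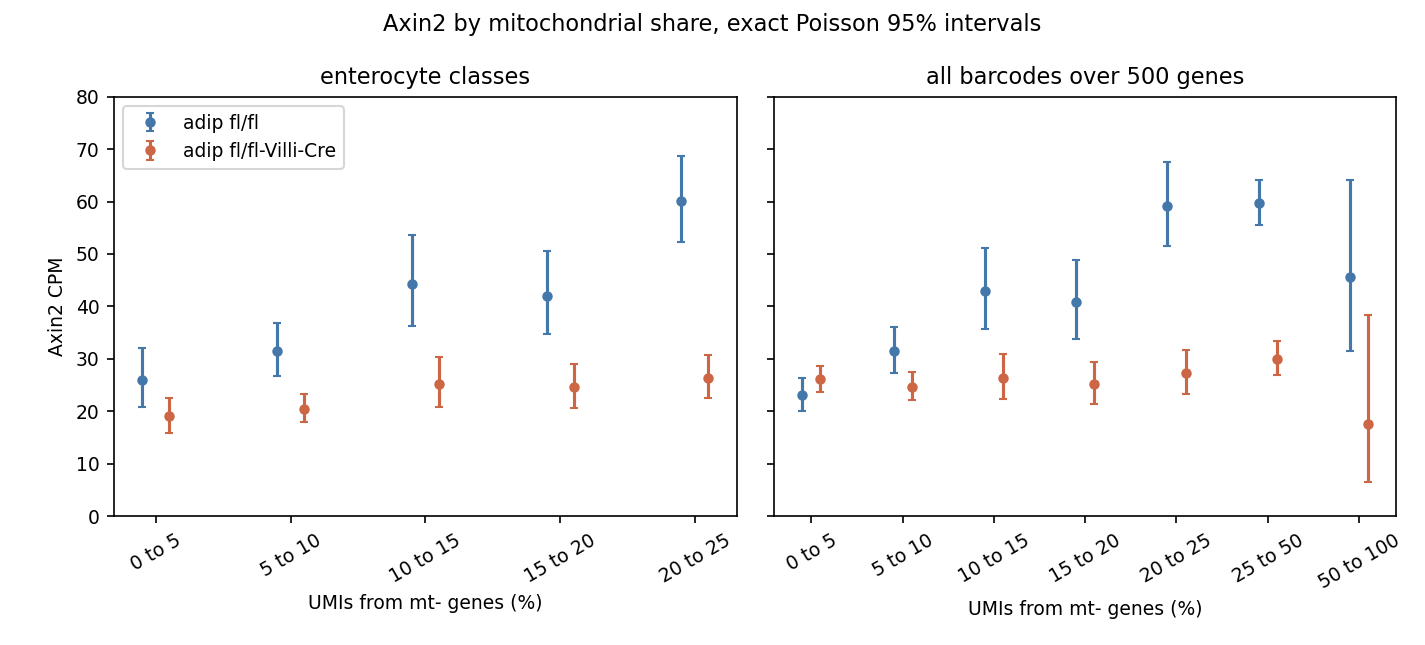
Axin2 level in CPM (y axis) by share of UMIs from mt- genes (x axis, %) in the enterocyte classes and in all barcodes over 500 genes, for the WT and AdipKO libraries, with exact Poisson 95% intervals. In the enterocyte classes WT is above AdipKO in each of the 5 bins, from 26.03 against 19.0 CPM in the lowest to 60.1 against 26.4 CPM in the highest. In all barcodes over 500 genes, which include the other classes, the lowest bin goes the other way. WT has 23.1 and AdipKO 26.1 CPM there, a ratio of 1.13 (0.960 to 1.34), and WT is above AdipKO in the remaining bins.

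Stem-like and TA-like cells, similar in depth, were compared over all genes with at least 20 UMIs in the pair. In WT, 5 of the 6 members that reached this count were at least 2-fold higher in stem-like cells, against 7.31% of 8688 genes. In AdipKO it was 8 of 8, against 9.76% of 10570 genes. Ascl2 (0 WT and 1 AdipKO UMIs in TA-like cells) and Lgr5 (2 in AdipKO) could reach 20 UMIs only through stem-like cells. Their passing was thus fixed in advance and adds nothing to these counts. Igfbp4 in AdipKO also reached that number only with its stem-like UMIs, 82 against 8. The ratios for Olfm4 were 18.4 (15.6 to 21.8) in WT and 37.6 (33.0 to 43.1) in AdipKO, and for Slc12a2 11.5 (8.99 to 14.9) and 14.3 (12.1 to 17.04). Smoc2 had 4.18 (2.76 to 6.50) and 4.31 (3.32 to 5.66), and Axin2 3.96 (2.63 to 6.14) and 3.56 (2.78 to 4.59). Rgmb was the exception in WT at 1.69 (1.11 to 2.59), with 3.35 (2.59 to 4.38) in AdipKO.

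Stem-like cells were also set against 5 other classes. Igfbp4 was at least 2-fold higher in the enteroendocrine-like cells led by Reg4, at 11.6 (6.09 to 23.2) in WT and 6.50 (4.42 to 9.47) in AdipKO, the single case of 7 members (18.2% of genes) and of 8 (20%). It was also higher in myeloid-like cells in WT at 5.30 (2.55 to 11.2), 1 of 7 members (16% of genes), and at 1.91 (0.798 to 3.95) in AdipKO, where 0 of 8 passed (16.8%). In tuft-like cells Lgr5 in WT was the single case, 1 of 7 members against 18.1% of 8384 genes, and 0 of 8 members passed in AdipKO against 17.2% of 10092 genes, where Lgr5 stood at 1.92. TA-like over villus bottom-like cells, 3 of 5 members were at least 2-fold higher in WT (17.7% of genes) and 4 of 5 in AdipKO (18.6%). Olfm4, Smoc2 and Slc12a2 passed in both libraries and Axin2 in AdipKO at 2.62 (1.96 to 3.48), with 1.46 (0.935 to 2.22) in WT.

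None of the members was at least 2-fold higher in goblet-like than in stem-like cells (0 of 6 in WT, 16.7% of genes, and 0 of 8 in AdipKO, 16%) or in the unnamed enterocyte cluster than in stem-like cells (0 of 6, 20.4%, and 0 of 8, 18.1%). Tuft-like over T cell-like cells, 4 of 4 members passed in WT (22.8%) and 3 of 4 in AdipKO (21.9%): Lgr5, Olfm4 and Slc12a2 in both and Axin2 in WT at 2.23 (1.05 to 4.62). Tuft-like over villus bottom-like cells, 4 of 6 passed in each library (16.2% and 17.2%), namely Lgr5, Olfm4, Smoc2 and Slc12a2. Olfm4 passed in these comparisons on very few tuft-like cells, with 19 of 20 UMIs from 1 cell in WT and all 17 UMIs from 3 cells in AdipKO. T cell-like cells held 0 and 1 UMIs of Lgr5, 5 and 8 of Olfm4 and 6 and 7 of Slc12a2. These members reached 20 UMIs only through tuft-like cells, so their passing over T cell-like cells was fixed in advance. The same holds for Lgr5 over villus bottom-like cells, which held 0 and 3 of its UMIs. Goblet-like over villus bottom-like cells, Slc12a2 alone passed, 1 of 4 (10.3%) and 1 of 5 (9.86%), at 14.2 (9.24 to 22.5) and 11.5 (8.45 to 15.9).

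Along the villus, Smoc2 and Slc12a2 were at least 2-fold higher in villus bottom-like than in mid-villus-like cells, 2 of 5 members in each library (16% and 16.4%). Axin2 ran the other way, at 16.3 CPM in WT and 11.4 CPM in AdipKO villus bottom-like cells and at 50.5 and 31.8 CPM in mid-villus-like cells. In the unnamed enterocyte cluster, which has no set place on the axis, Axin2 was compared with villus tip-like cells. The ratio was 3.38 (2.51 to 4.60) in WT, 1 of 2 members (27.6%), and 3.11 (2.33 to 4.16) in AdipKO, 1 of 3 (23.8%). Mid-villus-like over villus tip-like cells, 1 of 3 members passed in WT (Olfm4, 27 against 2 UMIs, 49% of genes) and 1 of 4 in AdipKO (Axin2, 2.20, 1.77 to 2.77, 47.7% of genes), below the share of all genes. Igfbp4 separated the enteroendocrine-like classes, with the one led by Reg4 over the one led by Ghrl at 37.3 (6.21 to 1519.8) in WT and 40.8 (6.96 to 1646) in AdipKO, 1 of 2 and 1 of 1 members (13.2% and 12.8%).

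The comparison of genotypes asks whether loss of adiponectin in the epithelium goes with a change in stem cell genes. In stem-like cells, 3 of the 8 members with at least 20 UMIs were 1.5-fold or more higher in the AdipKO library and 0 were lower. Of all 10001 genes that reached that count, 8.79% were as much higher and 6.3% as much lower. Lgr5 had a ratio of 2.74 (1.49 to 5.50), Igfbp4 of 2.04 (1.17 to 3.81) and Rgmb of 1.72 (1.29 to 2.33). Ascl2 (1.46, 0.953 to 2.33) and Olfm4 (1.43, 1.37 to 1.497) lay just below the limit. The median Olfm4 level per stem-like cell went the other way, at 1676 CPM in WT and 1195 CPM in AdipKO. Slc12a2 had 1.18 (1.08 to 1.29), Smoc2 1.14 (0.914 to 1.44) and Axin2 1.13 (0.897 to 1.43). Gkn3, with 19 UMIs, was not compared. The median log2 ratio was 0.53 over these 8 members and -0.00 over all genes.

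**Figure D5:**
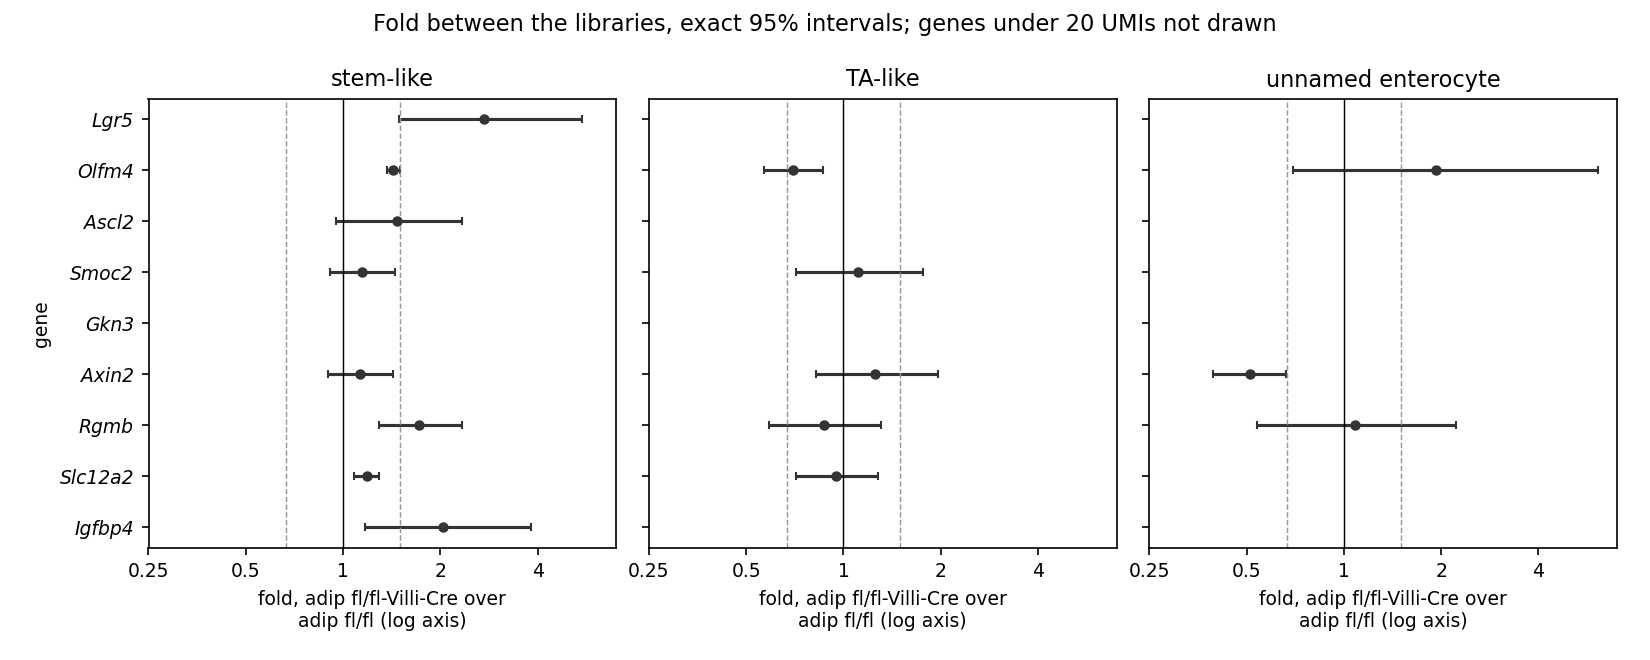
AdipKO over WT ratio (x axis, log scale) of each gene (y axis) in stem-like cells, TA-like cells and the unnamed enterocyte cluster, with exact 95% intervals, a solid line at 1 and dashed lines at 1.5-fold in either direction. In stem-like cells Lgr5, Igfbp4 and Rgmb lie past the upper dashed line, and in the unnamed enterocyte cluster Axin2 lies past the lower one at 0.512.

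The stem-like classes of the libraries also differed in markers of other cell types. Paneth cell markers summed to 57.7 CPM in WT and 718 CPM in AdipKO, with 3 and 1 of the 10 markers at 0 and at least 5 UMIs in 4 of 41 and 19 of 121 cells. T cell markers summed to 18.6 and 161 CPM, with 3 and 0 of 10 at 0, and tuft markers to 68.8 and 110.4 CPM, with 2 and 0 of 10 at 0. All 5 fibroblast markers were at 0 in WT and none in AdipKO, where 658 UMIs lay mainly in 2 cells. Goblet markers stood at 4262 and 6555 CPM and cycling markers at 2901 and 2068 CPM, none at 0 in either library. Without the cells that held 5 or more UMIs of Paneth, T cell, fibroblast, tuft or enteroendocrine markers (32 WT and 89 AdipKO cells left), Lgr5 had a ratio of 2.28, Ascl2 2.52, Rgmb 1.65, Igfbp4 1.62 and Olfm4 1.34. The part of goblet and cycling markers in these ratios was not tested.

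In TA-like cells 0 of 5 members passed 1.5-fold either way, against 8.3% of 9611 genes higher and 5.19% lower. Olfm4 stood at 0.699 (0.567 to 0.863), the reverse of its direction in stem-like cells, with most of its TA-like UMIs in 1 cell of each library. Axin2 stood at 1.26 (0.822 to 1.96), Smoc2 at 1.11, Slc12a2 at 0.951 and Rgmb at 0.869. In the same cells goblet markers summed to 169 CPM in WT and 1911 CPM in AdipKO (1 and 0 of 8 at 0) and T cell markers to 16.1 and 239 CPM (5 and 0 of 10 at 0). In tuft-like cells 0 of 7 members were higher and 2 lower, against 10.3% and 8.51% of 7167 genes. The lower members were Axin2 at 0.294 (0.0837 to 0.852), from 15 and 5 UMIs, and Rgmb at 0.505 (0.183 to 1.29), from 14 and 8 UMIs. The AdipKO tuft-like level of Axin2, 7.14 CPM, lay below the 8.22 CPM of T cell-like cells. Goblet markers summed to 485 CPM in WT and 4746 CPM in AdipKO tuft-like cells (0 of 8 at 0 in both), T cell markers to 21.03 and 194 CPM (5 and 0 of 10 at 0) and Paneth markers to 11.3 and 88.6 CPM (8 and 7 of 10 at 0). The part of these markers in the TA-like and tuft-like ratios was not tested.

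Axin2 was lower in the AdipKO library in all 4 enterocyte classes. The ratio was 0.699 (0.528 to 0.927) in villus bottom-like cells, 0.630 (0.548 to 0.726) in mid-villus-like cells, 0.512 (0.394 to 0.663) in the unnamed enterocyte cluster and 0.557 (0.402 to 0.777) in villus tip-like cells. It passed 1.5-fold in the last 3 classes, where 4.87%, 8.38% and 6.2% of genes were as much lower, and not in the first (4.59%). Goblet markers were higher in AdipKO in each of these classes, at 199.6 CPM in WT and 1477 CPM in AdipKO villus bottom-like cells, 429 and 946 CPM in mid-villus-like cells, 531 and 1320 CPM in the unnamed enterocyte cluster and 482 and 1342 CPM in villus tip-like cells, with 0 of 8 at 0, and their part in the Axin2 ratio was not tested. Within bins of the mitochondrial share the ratio was 0.731 (0.554 to 0.968) at 0 to 5%, 0.652 at 5 to 10%, 0.570 at 10 to 15%, 0.583 at 15 to 20% and 0.439 (0.356 to 0.540) at 20 to 25%. Olfm4 was 1.5-fold or more higher in AdipKO in villus bottom-like cells (1.89, 1 of 5 members, 5.41% of genes), the unnamed enterocyte cluster (1.93, 1 of 3, 7.4%), villus tip-like cells (7.52, 1 of 3, 10.5%) and goblet-like cells (10.3, with Axin2 at 1.51, 2 of 4, 13.3%), all from WT counts of 16 UMIs or fewer and at levels near those of T cell-like cells. In mid-villus-like cells 0 of 5 members were higher (4.89%), in goblet-like cells 0 of 4 lower (5.74%), and in T cell-like cells the 1 member with enough UMIs, Axin2, passed neither way (11.9% higher, 8.58% lower). Over all epithelial cells, Axin2 had 0.704 (0.645 to 0.769) while Olfm4 had 1.80 (1.72 to 1.88), Ascl2 1.66 (1.14 to 2.48) and Gkn3 2.45 (0.822 to 9.88), 3 of 9 members past 1.5-fold higher and 0 lower, against 4.66% and 7.05% of 15194 genes. The members past 1.5-fold in stem-like cells did not pass over all epithelial cells. Lgr5 had 1.28 (0.926 to 1.80), Igfbp4 1.35 (0.993 to 1.86) and Rgmb 1.10 (0.974 to 1.25) there. That pooled comparison also holds the larger number of stem-like cells in the AdipKO library.

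The other genes of the pathway were counted by role in stem-like cells, where 8.79% of all genes were 1.5-fold or more higher in AdipKO and 6.3% as much lower. Of the Wnt receptors and ligands, 2 of 8 genes were that much higher and 0 lower: the receptor Fzd7 at 1.96 (0.909 to 4.83) and Znrf3, a ligase that removes receptors, at 1.56 (0.796 to 3.34). The co-receptors Lrp5 (0.768) and Lrp6 (0.772) had the lowest ratios. Of 12 transduction genes 0 passed either way, from Dvl2 (0.689) and Dvl1 (0.746) to Pygo2 (1.18) and the beta-catenin partner Tcf7l2 (1.26). Of 9 other Wnt targets, 2 were higher, Sp5 at 2.76 (1.08 to 9.0) and Tnfrsf19 at 2.74 (0.822 to 14.3), and 0 lower, with Ccnd1 (0.934) and Myc (0.975) at the bottom. Of 3 reserve or revival stem genes 0 passed, with Msi1 at 1.26, Hopx at 1.07 and Bmi1 at 0.779. The median log2 ratios of the 4 lists were -0.19, -0.00, 0.17 and 0.10, beside -0.00 over all genes.

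The same genes were placed by the class in which they were highest. Among genes with at least 20 UMIs over the kept cells, stem-like cells were the highest class for 9.49% of 14129 genes in WT and 8.42% of 15124 genes in AdipKO. They were so for 6 of 8 and 7 of 9 members, for 1 of 9 and 2 of 9 receptors and ligands, for 0 of 14 transduction genes in both libraries, for 2 of 8 and 4 of 11 other Wnt targets, and for 0 of 6 and 0 of 7 reserve or revival genes. Sox9, a transcription factor of crypt and tuft cells, resembled Lgr5 in being highest in tuft-like cells, at 647 and 713 CPM against 140 and 136 CPM in stem-like cells. Msi1, an RNA-binding protein of stem cells, did so at 45.3 and 50.005 CPM against 19.5 and 24.6 CPM.

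The genes with profiles most like each member other than Rgmb were sought among 11859 genes over the same 26 profiles, in which a member's highest class weighs most. For Lgr5 they were Pou2f3, the tuft cell transcription factor (r = 0.953), Hmx3 (0.9399) and Colca2 (0.934). For Olfm4 they were Efna4 (0.882), Acsm3 (0.862) and Prelp (0.855), for Gkn3 Prelp (0.939), Olfm4 (0.890) and Cyp39a1 (0.889), and for Smoc2 Clca3b (0.934), Cdo1 (0.9199) and Pkp1 (0.904). For Ascl2 they were Pla2g4a (0.915), Tmem132a (0.892) and Scn2b (0.873). For Igfbp4 they were Cdk14 (0.912), Fry (0.818) and Slc18a2 (0.810), for Axin2 Smad4 (0.841), Zfp445 (0.814) and Tfdp2 (0.812), and for Slc12a2 Adra2a (0.790), Ehf (0.773) and Avpi1 (0.773). Pou2f3 and Prelp were among the markers used to name classes. The Gkn3 correlations rest on 4 UMIs in WT and 20 in AdipKO, fewer than the 50 asked of the genes compared with it.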

How the data were processed

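Per the paper's methods, the labels and the file headers, the authors dissociated the tissue, removed dead cells, made 10x Chromium 3′ libraries and aligned the reads to mm10 with Cell Ranger; the submitters' processing notes name bcl2fastq 5.0.1. The Cell Ranger version differs between methods and file header and is not printed, and whether intronic reads were counted is not given in the sources used here. The deposited values were raw UMI counts, not normalised, in 1 matrix per genotype.

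Barcodes with more than 500 genes and under 25% mt- UMIs, the filter of the study's methods, were kept; it left fewer barcodes here than the study states. Counts were log-normalised to 10000, and 2000 variable genes (without the members and pathway lists) and 20 principal components were clustered at resolution 0.8 in Seurat 5.3.0 (R 4.3.3), with crypt clusters split once at 0.4. A marker passed in a cluster with 10 or more UMIs and a level 2-fold or more above the remaining cells. Outside the crypt clusters, a cluster took the type with the largest share of passing markers, from 3. A T cell cluster with 5 or more cycling markers was called cycling. Of the crypt clusters, one with 5 or more stem markers was called stem-like, and one with 5 or more cycling and under 3 goblet and 3 Paneth markers TA-like. Levels were UMI sums per class scaled to 1000000 (CPM), compared as ratios with exact intervals and no test. A gene was compared between libraries from 20 UMIs in both together and counted at 1.5-fold, and between classes at 2-fold. Scrublet in scanpy 1.11.5 called too few doublets to be used, so none were removed. Python 3.11.15 and SciPy 1.17.1 were used, and the interval and fold scripts were tested on simulated data. The members, lists and comparisons were chosen with earlier results of these data known. The rule for named genes took all members, the 2 highest and 2 lowest ratios of each list, and the 3 genes with the highest correlation to each member; genes of co-detection, Sox9 and Msi1 in tuft-like cells were named after their values were seen. The genes most correlated with Rgmb are not reported here. The alternatives tried were other filters, resolution, components, thinning depth, gene minimum, fold, removal of the 8% highest doublet scores and of the richest cell.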

Additional observations from a re-analysis of the deposited data

Results flagged for a closer look

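Several members had AdipKO over WT ratios on opposite sides of 1 in different cell classes, and the difference between classes was not tested. Olfm4 stood at 0.699 in TA-like cells and at 1.43 in stem-like, 1.89 in villus bottom-like, 7.52 in villus tip-like (2 and 42 UMIs) and 10.3 in goblet-like cells (1 and 20 UMIs). Its TA-like ratio rests largely on 1 cell of each library, which held 131 of 153 WT and 126 of 228 AdipKO UMIs. No Olfm4 UMI was found in 33 of 44 WT and 61 of 108 AdipKO TA-like cells. The Olfm4 level in T cell-like cells was 2.87 CPM in WT and 4.11 CPM in AdipKO. Rgmb stood at 1.72 in stem-like and 0.754 in mid-villus-like cells. Slc12a2 stood at 1.18 in stem-like and 0.794 in goblet-like cells.

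Barcodes that the filter removed carried member UMIs above the limit that a count of 0 allows. In WT the levels were 51.2 CPM for Axin2, 8.93 CPM for Rgmb, 3.40 CPM for Olfm4, 1.64 CPM for Slc12a2 and 0.729 CPM for Smoc2. In AdipKO they were 25.5 CPM for Axin2, 8.01 CPM for Rgmb, 11.6 CPM for Olfm4, 3.59 CPM for Slc12a2 and 1.04 CPM for Smoc2. The removed barcodes held 48.6% of WT Axin2 UMIs.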

How the results depend on the processing

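No paired analysis was possible because each genotype had 1 library. Of 55 summary values under the alternatives, 51 stayed close to the reported ones and 4 moved. Of the remaining values, mainly levels, shares and ratios of single genes, 290 stayed close and 48 moved. Close meant within 1.5-fold for counts, a wide margin for counts this small, and within the reported interval for levels, shares and ratios. Among the summary values a reversal could be seen only in the tuft-like over stem-like ratios of Lgr5, and 0 of these reversed. The moved summary values were as follows. Without the richest cell of each gene, 5 members passed 1.5-fold in stem-like cells in place of 3. Thinning to 1000 UMIs left 3 members with their highest detection share in stem-like cells of both libraries, in place of 6. The pathway genes past the fold in stem-like cells numbered 2 with a minimum of 50 UMIs and 2 at a fold of 2, in place of 4. For these moves the cause was not tested, apart from the smaller number of genes that a stricter minimum or fold leaves. In stem-like cells the AdipKO over WT ratio of Lgr5 ranged from 1.97 to 3.61 and that of Igfbp4 from 1.62 to 3.96, past 1.5-fold in all 13 settings, whereas Rgmb ranged from 1.39 to 2.07 (past in 9), Ascl2 from 1.28 to 2.52 (5) and Olfm4 from 1.195 to 1.56 (2). The alternatives that remove cells with other markers, pool the crypt classes, or change the Axin2 denominator or its mitochondrial limit were chosen after seeing the data. The 12 Lgr5 UMIs in WT stem-like cells set the precision of its ratio.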
